A study of Mus musculus with 9 samples.

Results

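The 8 mouse genes described here are 8 of the 32531 gene rows of the deposited tables: Map3k9, Socs7, Trim32, Hnmt, Coro1a, Ndn, Pla2g4e and Yeats2. They were chosen from the measured values, because their level in the immunoprecipitates (IPs) of 1 investigator lay above or below both other groups of libraries or differed very strongly from the IPs of the other investigator. For 7 of the 8, all but Yeats2, the 3 ES IP libraries lay above all 6 JL libraries. Yeats2 did not lie outside both groups: its ES IP level lay between them, far below the JL IPs and above the JL inputs. The comparisons that involve the ES IPs are therefore given for these genes as description, with no test.

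The 9 libraries were made from cerebral cortex tissue of adult control mice, without treatment, of the TRAP line ES3026, which carries Abcb1a-EGFP/Rpl10a. In translating ribosome affinity purification (TRAP), a ribosomal protein fused to a green fluorescent protein is made in chosen cells, and antibodies to the tag pull down ribosomes together with the mRNA they carry. Here regulatory sequence of Abcb1a, which encodes an efflux transporter of the blood-brain barrier, drives the tag, and the labels name endothelial cells as the cells purified. There were 3 groups of 3: IPs whose RNA was extracted by the investigator with the initials ES, IPs extracted by the investigator JL, and JL input, the RNA of the cortex before purification. Genotype, tissue and lack of treatment were shared by all 3 groups, and the submitters describe the initials as the only distinction between ES and JL. The labels are silent on whether each library is a separate mouse, so a p-value here reflects library-to-library spread, which may be technical. No ES input was among the samples, and the ES libraries were sequenced on a lane of their own, so that investigator, lane and group cannot be told apart; each JL IP carried the lane number of the same-numbered input. Sex-linked rows also differed between libraries. The Y-linked gene Ddx3y was at 660, 1037 and 855 counts for ES IP and at 2298, 1 and 0 counts for JL IP replicates 1 to 3. It was at 3249, 1 and 0 counts for the same-numbered inputs. Xist, an X-linked RNA of female cells, was at 1, 986 and 1156 counts in these inputs. Its counts were 51, 196 and 177 for JL IP and 35, 181 and 68 for ES IP. By these rows JL replicate 1 did not come from the same animals as JL replicates 2 and 3. Whether JL replicates 2 and 3, or the ES libraries, are separate mice is not settled by them. The part of sex in the levels given here was not tested. Levels are CPM, read counts scaled by library size and TMM factors.

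The genes belong to several cellular systems. Map3k9 encodes a mixed-lineage kinase at the top of the cascade that activates the stress kinase JNK. Socs7 and Trim32 serve the ubiquitin system, Socs7 as an adaptor that brings phosphorylated proteins to a cullin ligase and Trim32 as a RING ligase. Hnmt methylates histamine, the main route of histamine inactivation in the brain, and Pla2g4e is a cytosolic phospholipase A2 relative that makes N-acyl phosphatidylethanolamines, precursors of endocannabinoid-like lipids. Coro1a binds actin filaments and is best known from leukocytes, Ndn (necdin) is an imprinted gene of the MAGE family best known from postmitotic neurons, and Yeats2 is a subunit of the ATAC histone acetyltransferase complex that reads acylated histone tails.

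The genes lie on several chromosomes, and their start regions differ in how many CG dinucleotides they hold. RefSeq promoter entries (build GRCm38.p6, the same assembly as mm10; 250 bases before to 50 after a start) were found for 7 of the 8; Socs7 had none. The 4 printed here show the widest contrast among genes that moved together or apart, with each CG dinucleotide in capitals (the pair reads the same on both strands). Map3k9 is on the minus strand at chr12:81781121-81781420, Hnmt on the minus strand at chr2:24049330-24049629, Pla2g4e on the minus strand at chr2:120245286-120245585 and Yeats2 on the plus strand at chr16:20140813-20141112.
Map3k9: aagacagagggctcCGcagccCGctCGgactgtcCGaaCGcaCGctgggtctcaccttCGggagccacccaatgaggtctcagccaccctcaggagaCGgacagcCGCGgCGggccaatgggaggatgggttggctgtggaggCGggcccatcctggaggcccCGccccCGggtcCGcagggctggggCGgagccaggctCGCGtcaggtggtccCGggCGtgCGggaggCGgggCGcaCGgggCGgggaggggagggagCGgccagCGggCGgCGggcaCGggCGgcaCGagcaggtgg
Hnmt: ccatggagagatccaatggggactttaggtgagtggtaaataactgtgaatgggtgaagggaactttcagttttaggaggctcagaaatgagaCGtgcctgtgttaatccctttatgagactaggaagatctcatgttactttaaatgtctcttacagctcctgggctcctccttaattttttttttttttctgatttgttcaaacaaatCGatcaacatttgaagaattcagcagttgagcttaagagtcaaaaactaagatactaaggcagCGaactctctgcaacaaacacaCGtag
Pla2g4e: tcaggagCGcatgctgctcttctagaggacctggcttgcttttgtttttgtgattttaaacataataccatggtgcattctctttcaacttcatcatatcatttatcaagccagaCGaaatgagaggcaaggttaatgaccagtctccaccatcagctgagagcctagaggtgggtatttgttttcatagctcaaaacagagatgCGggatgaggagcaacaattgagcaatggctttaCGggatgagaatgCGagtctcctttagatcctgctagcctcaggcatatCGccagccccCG
Yeats2: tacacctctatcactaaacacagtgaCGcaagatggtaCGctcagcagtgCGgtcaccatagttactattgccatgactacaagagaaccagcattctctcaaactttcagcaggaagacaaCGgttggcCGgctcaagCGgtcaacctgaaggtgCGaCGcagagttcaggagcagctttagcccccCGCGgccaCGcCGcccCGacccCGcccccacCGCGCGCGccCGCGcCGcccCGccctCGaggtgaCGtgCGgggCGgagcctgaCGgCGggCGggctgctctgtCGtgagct
The Map3k9 window holds 32 CG pairs and the Yeats2 window 30, against a median of 7 over 32851 promoters of the same length, and 9.52% and 11.7% of all promoters hold at least as many. The Hnmt window holds 4, a number that 68.6% of promoters reach, and the Pla2g4e window 7, which 52.1% reach. The windows with the most and the fewest CG pairs thus both include genes that were highest in the ES IPs, and the Yeats2 window is nearly as rich in CG as that of Map3k9. The remaining windows held 18 (Trim32), 11 (Ndn), and 10 and 19 (2 entries for Coro1a).

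**Figure D1:**
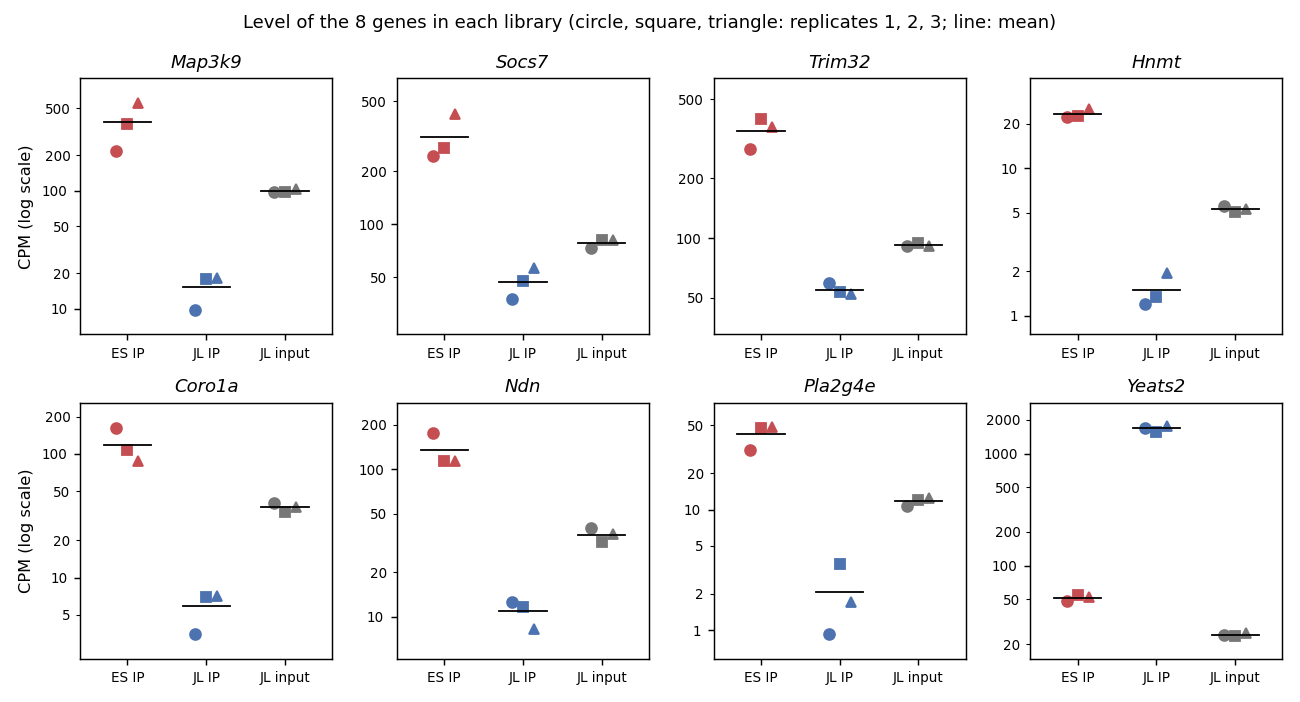
Level of each of the 8 genes in CPM (log axis) in each library, in 3 columns for ES IP, JL IP and JL input; circles, squares and triangles are replicates 1, 2 and 3, and the line is the mean of 3. In 7 panels the ES IPs are highest and the JL IPs lowest without overlap, and in the Yeats2 panel the JL IPs, between 1551 and 1776 CPM, stand far above both other groups.

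The order of the groups was the same in all 7 genes other than Yeats2: ES IP highest, JL input in the middle and JL IP lowest, with no overlap between neighbouring groups. Across all genes, 10.2% had all 3 ES IPs above all 6 JL libraries and 7.95% had them all below, so the position alone is not rare; the choice of the genes fixes it here, and nothing is read from it. The excess, given as a description, was among the larger ones: of 15981 genes tested in both ES comparisons, ES IPs exceeded the higher of the JL groups by at least 1 log2 unit in 387 genes (2.42%), and the 7 genes ranked between 46 (Hnmt) and 94 (Coro1a) of 15981. Relative to JL input the 7 fold changes lay in a narrow band, from 1.67 (Coro1a) to 2.13 (Hnmt) on the log2 scale. Relative to the JL IPs they spread from 2.74 (Trim32) to 4.73 (Map3k9), and this spread came with the JL IPs, which lay 1.67-fold (Socs7) to 6.50-fold (Map3k9) below input by their mean CPM. In bulk samples such as these, fewer cells of a type and less RNA per cell cannot be told apart.

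Only JL IP against JL input leaves the ES libraries out, and it was tested with edgeR's quasi-likelihood test, with Benjamini-Hochberg adjustment over all 17357 genes tested and a threshold of 0.05. The JL libraries had nevertheless entered the choice of the genes, since a strong difference from the ES IPs depends on the JL IP level too. For the 8 genes the adjusted p-values, calls and median of this comparison are therefore a description and no independent support. Of the 8 genes, 7 were lower in the JL IPs and 1, Yeats2, was higher, in a comparison where 37.4% of all genes were called lower and 36.7% higher. The median log2 fold change of the 8 was -1.78, against -0.09 over all genes tested.

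**Figure D2:**
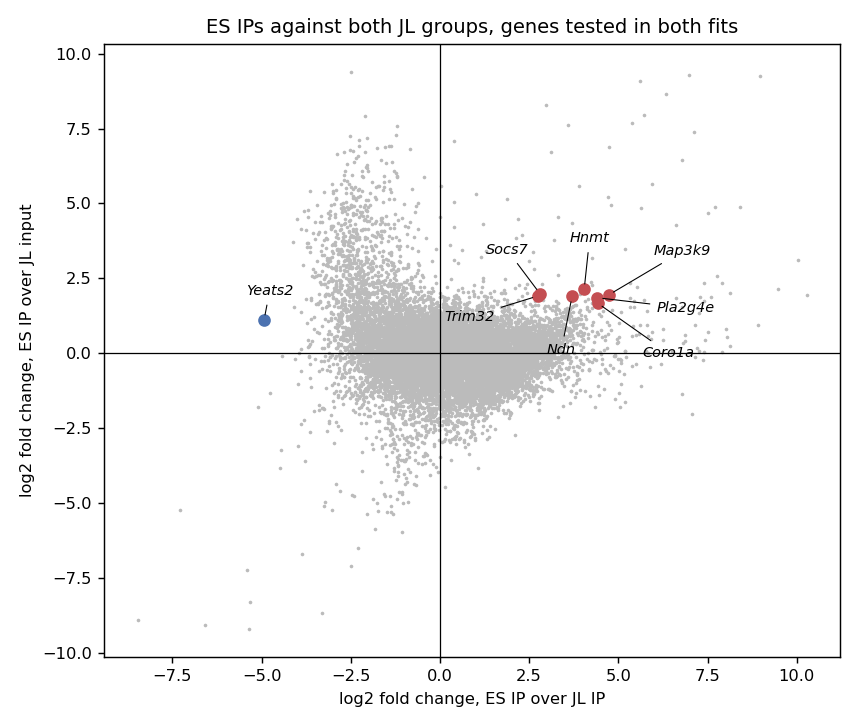
Log2 fold change of ES IP over JL IP (horizontal) and of ES IP over JL input (vertical) for 15981 genes tested in both comparisons (grey points), with the 8 genes in colour; both axes share the ES IP libraries. The 7 red genes sit at 2.74 to 4.73 on the horizontal and 1.67 to 2.13 on the vertical axis, and Yeats2 (blue) at -4.93 and 1.10.

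Map3k9 was the gene of the 7 with the widest difference between the IP groups. Its level was 216, 371 and 559 CPM in ES IP replicates 1, 2 and 3, 9.66, 17.8 and 18.3 CPM in the JL IPs, and 97.9, 96.9 and 103 CPM in the JL inputs. The ES IPs did not overlap with either group, but their highest library held 2.59 times the level of the lowest, the widest spread of any of the 8 genes within the ES IPs. The fitted log2 fold change was 4.73 (SE 0.39) over the JL IPs, rank 104 of 15981 genes, and 1.95 (SE 0.31) over input. In the JL IPs Map3k9 fell by 2.70 (SE 0.21) on the log2 scale against input (edgeR adjusted p = 4.96e-06), with all 3 libraries below all 3 inputs. Map3k9 spans chr12:81721010-81781175 on the minus strand, and its longest coding transcript, at 58.8% GC, is richer in GC than most (91.4% of 14583 genes are at or below it).

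Other genes of the mixed-lineage kinase and JNK pathway mostly stood higher in the ES IPs than in the JL IPs: of 13 tested, 11 were higher and 2 lower, where 29.7% and 28.2% of all genes were called higher and lower. Their median log2 difference was 1.67, against 0.03 over all genes. Mapk8ip2, a scaffold of the JNK cascade, was counted at 22.1, 268 and 24.2 CPM in the ES IPs, at 5.51, 3.16 and 10.5 CPM in the JL IPs, and at 35.8, 34.7 and 36.4 CPM in the inputs. ES IP replicate 2 thus set its ES mean, and the other two ES IPs lay between the JL groups. Its log2 fold change over the JL IPs was 4.12 (SE 0.92, edgeR adjusted p = 0.00266), and 1.95 without that library (adjusted p = 0.00288); over input it went from 1.56 (adjusted p = 0.159) to -0.61 (adjusted p = 0.00649). Mapk10, the JNK of neurons, differed by 3.09 (SE 0.21, adjusted p = 1.06e-06). The 2 that were lower were the sister kinase Map3k11, with means of 69.4 CPM for ES and 403 CPM for JL (log2 fold change -2.46, adjusted p = 9.14e-07), and the JNK target Jun (-1.10, adjusted p = 0.000813). Against JL input 4 of 13 were higher and 1 lower, where 26.9% and 25.3% of all genes were, and without ES IP replicate 1 the 4 became 9. With upper-quartile scaling the split of all genes called in that comparison went from 4704 higher and 4422 lower to 3705 and 5395. All 3 ES IPs lay above all JL libraries for Map3k10, Map2k7 (a kinase that activates JNK) and Mapk8ip3, and for none of the 13 did they lie below.

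Socs7 was closest to Trim32 among the 8 genes. Its level was 243, 269 and 421 CPM in the ES IPs, 37.9, 47.5 and 56.4 CPM in the JL IPs, and 73.2, 81.3 and 81.5 CPM in the inputs. All ES IPs lay well above, the lowest of them 2.99 times the highest JL library, while the JL groups were close, with the lowest input only 1.30 times the highest JL IP. The log2 fold change was 2.80 (SE 0.25) over the JL IPs and 1.99 (SE 0.22) over input. Between the JL groups Socs7 fell by 0.73 (SE 0.14, edgeR adjusted p = 0.00112), the smallest change of the 8. The gene spans chr11:97362551-97398542 on the plus strand and has a longest coding transcript of 7015 bases; 91.0% of genes are at or below this length.

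The relatives of Socs7 split, with more of them lower than higher in the ES IPs. Of 11 tested genes of the SOCS family and its ligase, 8 were higher and 2 lower in the JL IPs than in input, where 36.7% and 37.4% of all genes were, and 6 were lower and 3 higher in the ES IPs than in the JL IPs, where 28.2% and 29.7% of all genes were. Socs2, a feedback inhibitor of growth hormone signalling, had means of 28.4, 80.2 and 26.3 CPM (ES IP, JL IP, JL input), with a log2 fold change of -1.42 (SE 0.18, edgeR adjusted p = 5.23e-05) between the IPs. Socs3, which restrains cytokine receptors, was low throughout, at 3.63, 8.61 and 1.12 CPM, and differed by -1.17 (SE 0.25, adjusted p = 0.00238). Socs4, Socs6, Cish and Elob, an elongin that links SOCS proteins to their cullin, were the other 4 that were lower. The 3 that were higher were Socs5 (1.19, adjusted p = 0.000378), the elongin Eloc (1.18, adjusted p = 0.00146) and the cullin Cul5 (0.92, adjusted p = 0.000586). For Socs5 and Eloc all ES IPs lay above all JL libraries, as for Socs7, with means of 206 and 76.3 CPM in the ES IPs.

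Trim32 had the highest level per kilobase of the 7 genes. It was counted at 281, 398 and 364 CPM in the ES IPs, 59.3, 53.3 and 52.3 CPM in the JL IPs, and 91.5, 94.6 and 91.4 CPM in the inputs. The groups were tight and apart, with a coefficient of variation of 17.3% for ES IP, 6.93% for JL IP and 1.93% for input. The log2 fold change was 2.74 (SE 0.19) over the JL IPs and 1.91 (SE 0.16) over input. In the JL IPs Trim32 fell by 0.75 (SE 0.08) against input (edgeR adjusted p = 3.51e-05). At 108 CPM per kb of exon in the ES IPs, it ranked 249 of 15518 genes, against 2734 in the JL IPs and 1209 in input.

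Trim32 (chr4:65604986-65616238, plus strand) lies inside the gene of the neuronal protein Astn2 on the opposite strand, with no exonic base shared. Astn2 had means of 10.9, 4.47 and 17.8 CPM (ES IP, JL IP, JL input), with its ES IPs below input, where those of Trim32 lay above. Its JL IP libraries ran from 0.86 to 9.51 CPM, and its call between the IPs depended on the setting: the log2 fold change was 1.37 (edgeR adjusted p = 0.0731), but 2.55 without JL IP replicate 3 (adjusted p = 0.00146), 1.97 with limma-voom (adjusted p = 0.0072), 1.90 with a replicate block (adjusted p = 0.00806) and 1.38 without a filter on low counts (adjusted p = 0.0284). Of all genes 29.7% were called higher and 28.2% lower in the ES than in the JL IPs. Of 7 tested genes in the list of NHL-repeat relatives and astrotactins, 3 were higher and 1 lower. Trim3, a brain ligase with the same NHL repeats, was the 1 whose ES IPs all lay above the JL libraries, with means of 84.9, 29.8 and 45.4 CPM (ES IP, JL IP, JL input) and log2 fold changes of 1.59 (adjusted p = 1.5e-05) over the JL IPs and 0.90 (adjusted p = 0.00027) over input. Trim2 was higher than in the JL IPs by 3.12 (adjusted p = 1.17e-06) and not called against input (0.30, adjusted p = 0.184), except without ES IP replicate 1 (0.47, adjusted p = 0.0019). Trim56, an antiviral ligase, was lower (log2 fold change -2.47, adjusted p = 1.08e-05).

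Hnmt was the most even of the 7 genes within the ES IPs. It was counted at 22.1, 22.6 and 25.3 CPM in the ES IPs, 1.20, 1.33 and 1.96 CPM in the JL IPs, from 35 to 58 reads per library, and 5.57, 5.05 and 5.33 CPM in the inputs. The lowest ES IP held 3.96 times the highest JL library, the widest such gap of the 7 genes. The log2 fold change was 4.04 (SE 0.27) over the JL IPs and 2.13 (SE 0.13) over input, the latter the largest of the 8. Between the JL groups Hnmt fell by 1.83 (SE 0.29, edgeR adjusted p = 0.000436). The gene spans chr2:24002910-24049394 on the minus strand, and its transcript, at 37.6% GC and 1656 bases, is among the least GC-rich, with 1.15% of genes at or below it.

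Other genes of histamine metabolism had mixed orders. Of 11 listed genes 9 were tested, and in the ES IPs against the JL IPs 4 were higher and 3 lower. Over all genes 29.7% were called higher and 28.2% lower. Hdc, which makes histamine, was scarce, at 0.26, 2.50 and 1.59 CPM (ES IP, JL IP, JL input), and all ES IPs lay below the JL libraries (log2 fold change -3.18 over the JL IPs, edgeR adjusted p = 0.0021). Maoa, an oxidase of monoamines, had means of 68.1, 408 and 34.2 CPM and a log2 fold change of -2.50 (adjusted p = 1.94e-06). The receptors went the other way: Hrh2 was higher than in the JL IPs by 3.12 (adjusted p = 0.000305), or 3.96 without JL IP replicate 2 (adjusted p = 7.69e-05), and Hrh3, the presynaptic receptor of the brain, by 1.68 (adjusted p = 4.09e-05). Hrh3 was the 1 gene of this list whose ES IPs all lay above the JL libraries, at a mean of 76.9 CPM against 25.4 and 53.0. Hrh1 and the transporter Slc22a3 were the other 2 called higher (1.84, adjusted p = 0.0231, and 1.41, adjusted p = 0.0401), but leaving out ES IP replicate 2 or 3 ended both calls (adjusted p 0.0641 and 0.0528 for Hrh1, 0.0739 and 0.117 for Slc22a3), as did leaving out ES IP replicate 1 or JL IP replicate 2 or 3 for Slc22a3 (adjusted p 0.0904, 0.0857 and 0.0849). Slc18a2, the vesicular transporter that loads histamine, fell by 2.15 against input (adjusted p = 4.8e-05) and was not called between the IPs.

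Pla2g4e was low in the JL IPs, at 27, 123 and 51 reads. It was counted at 31.1, 47.4 and 48.1 CPM in the ES IPs, 0.92, 3.57 and 1.72 CPM in the JL IPs, and 10.8, 11.96 and 12.4 CPM in the inputs. No groups overlapped, although the JL IPs differed 3.86-fold among themselves, the widest spread within a group of any of the 8 genes. The log2 fold change was 4.41 (SE 0.43) over the JL IPs, and 5.07 without JL IP replicate 2, the highest of the 3. Over input it was 1.85 (SE 0.19). Between the JL groups Pla2g4e fell by 2.48 (SE 0.42, edgeR adjusted p = 0.000643), and by 3.13 without JL IP replicate 2. The gene spans chr2:120166412-120245335 on the minus strand and shares 153 exonic bases, 2.20% of its exonic length, with the transcript Gm13997 on the same strand, which has no row in the tables.

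Among its relatives, the neighbouring Pla2g4d and the paralogs Pla2g4b and Pla2g4f were at or near 0 in all groups, at means of at most 0.11 CPM. Pla2g4a, the phospholipase that releases arachidonic acid, showed another order, at 5.64, 20.2 and 1.54 CPM (ES IP, JL IP, JL input), and was lower in the ES than in the JL IPs (log2 fold change -1.77, edgeR adjusted p = 0.000149). Further steps of the same lipid pathway moved in opposite ways between the IPs. Faah, which breaks down N-acyl ethanolamines, was higher in the ES IPs by 2.50 (adjusted p = 1.8e-06), as was the cannabinoid receptor Cnr1, by 2.62 (adjusted p = 2e-06). Abhd4 and Napepld, which act on the phospholipid that Pla2g4e makes, were lower, with log2 fold changes of -1.26 (adjusted p = 8.95e-05) and -0.95 (adjusted p = 0.00145). In all, 2 of 7 tested genes of the list were higher and 3 lower, and none but Pla2g4e had its ES IPs above all JL libraries. Over all genes 29.7% were called higher and 28.2% lower, and 10.2% had all ES IPs above.

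Coro1a was counted at 162, 107 and 88.4 CPM in the ES IPs, 3.53, 6.90 and 7.12 CPM in the JL IPs, and 40.3, 34.0 and 37.6 CPM in the inputs. The ES IPs were the highest group throughout, with replicate 1 above the other two. The log2 fold change was 4.42 (SE 0.32) over the JL IPs and 1.67 (SE 0.21) over input, the smallest of the 7. Between the JL groups Coro1a fell by 2.67 (SE 0.24, edgeR adjusted p = 1.30e-05). Markers of the cells for which coronin 1A is best known were low: the summed level of 9 leukocyte genes ran from 3.16 to 5.20 CPM for ES IP, 2.33 to 3.63 CPM for JL IP and 6.30 to 6.63 CPM for input, with Ms4a1 at 0 in all 9 libraries, Cd3g in all ES IPs and S100a8 in all JL IPs. The summed level of 8 microglia genes ran from 36.0 to 46.8 CPM for ES IP, 25.3 to 26.3 CPM for JL IP and 74.1 to 80.4 CPM for input. Of these 8, 5 were called higher and 1 lower in the ES than in the JL IPs, where 29.7% and 28.2% of all genes were. Against input 0 were higher and 4 lower, where 26.9% and 25.3% of all genes were. The part of these cells in the level of Coro1a was not tested.

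Coro1a spans chr7:126699773-126707787 on the minus strand and shares 26 exonic bases, 0.934% of its exonic length, with Bola2 on the opposite strand. Bola2 did not follow it, at means of 22.8, 25.2 and 11.0 CPM (ES IP, JL IP, JL input). Of 15 tested coronins and subunits of the Arp2/3 complex, the actin nucleator that coronins restrain, 3 were higher and 4 lower in the ES than in the JL IPs. Over all genes 29.7% were called higher and 28.2% lower. The 3 and 4 became 6 and 6 without ES IP replicate 1, or 2 and 3 without ES IP replicate 2 or 3. Coro7, a coronin of the Golgi, was higher by 1.33 (edgeR adjusted p = 0.00117) and the Arp2/3 subunit Arpc1a by 1.31 (adjusted p = 2.97e-05), and both had all ES IPs above the JL libraries. The sister subunit Arpc1b had the reverse IP order, at 44.6, 271 and 12.04 CPM, and was lower (log2 fold change -2.53, adjusted p = 3.04e-06). The nearest coronin paralog, Coro1b, was not called between the IPs (-0.27, adjusted p = 0.278), except without ES IP replicate 1 (-0.53, adjusted p = 0.0064).

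Ndn was counted at 176, 113 and 113 CPM in the ES IPs, 12.7, 11.6 and 8.30 CPM in the JL IPs, and 39.8, 31.9 and 36.4 CPM in the inputs. The lowest ES IP held 2.84 times the highest JL library, and replicate 1 was the highest ES IP, as for Coro1a. The log2 fold change was 3.70 (SE 0.25) over the JL IPs and 1.89 (SE 0.19) over input. Between the JL groups Ndn fell by 1.73 (SE 0.18, edgeR adjusted p = 2.74e-05). Ndn is a gene of 1 exon at chr7:62346569-62350262 on the plus strand, inside the span of the noncoding gene Gm32061 on the opposite strand, which has no row in the tables.

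The nearest protein-coding genes on either side of Ndn, both imprinted, were scarce and did not share its order. Magel2, 26748 bases away, had means of 1.31, 0.64 and 3.09 CPM (ES IP, JL IP, JL input). Snrpn lay much farther off, 2206350 bases away on the other side, with means of 0.58, 0.45 and 3.90 CPM. Neither was called between the IPs, although Magel2 was without JL IP replicate 3, where its log2 fold change went from 1.12 (edgeR adjusted p = 0.161) to 1.85 (adjusted p = 0.0366). Both fell against input in the ES IPs, by 1.23 (edgeR adjusted p = 0.00374) and 2.75 (adjusted p = 7.43e-05). Snrpn shares exonic sequence with Snurf, so that reads of the pair are uncertain. Of all genes 29.7% were called higher and 28.2% lower in the ES than in the JL IPs. Of 10 tested MAGE and imprinted genes, 4 were higher and 2 lower. The 2 lower calls were Maged2 (-0.52, adjusted p = 0.0343) and Mageh1 (-0.64, adjusted p = 0.0327). Both ended without ES IP replicate 2 (adjusted p 0.13 and 0.112), ES IP replicate 3 (0.12 and 0.0943) or JL IP replicate 2 (0.0526 and 0.159). They also ended with library size alone (0.0623 and 0.0528). The call on Maged2 ended too without JL IP replicate 1 (0.0598) or 3 (0.105), or without a filter on low counts (0.0593). Of the 4 higher calls, that on Ube3a (0.52, edgeR adjusted p = 0.0264) ended without ES IP replicate 2 (0.119). It also ended without JL IP replicate 1 (0.0951), 2 (0.0575) or 3 (0.0503). Magee1 was higher by 2.31 (adjusted p = 4.95e-06) and Maged1, a partner of p75 neurotrophin signalling, by 1.36 (adjusted p = 3.34e-05). Maged1 was the 1 gene of the list with all ES IPs above the JL libraries, at means of 527, 217 and 384 CPM.

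Yeats2 had a level in the JL IPs that no other group approached. It was counted at 1705, 1551 and 1776 CPM in the JL IPs, 48.5, 55.0 and 52.4 CPM in the ES IPs, and 23.9, 23.6 and 25.1 CPM in the inputs. Within each group the libraries were alike, with coefficients of variation of 6.85%, 6.28% and 3.29%, and the lowest JL IP held 28.2 times the highest ES IP. Against input, Yeats2 rose in the JL IPs by 6.12 (SE 0.09) on the log2 scale, 69.3-fold by mean CPM (edgeR adjusted p = 1.29e-09), rank 313 of 17357 genes. The choice of Yeats2 drew on these same JL IP values, so this p-value is a description only. The ES IPs stood 4.93 (SE 0.19) below the JL IPs, the 8th lowest of 15981 genes, and 1.10 (SE 0.11) above input. Per kilobase of exon it ranked 193 of 15518 genes in the JL IPs, 6991 in the ES IPs and 9116 in input. It took between 0.141% and 0.165% of all gene counts in the JL IPs.

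**Figure D3:**
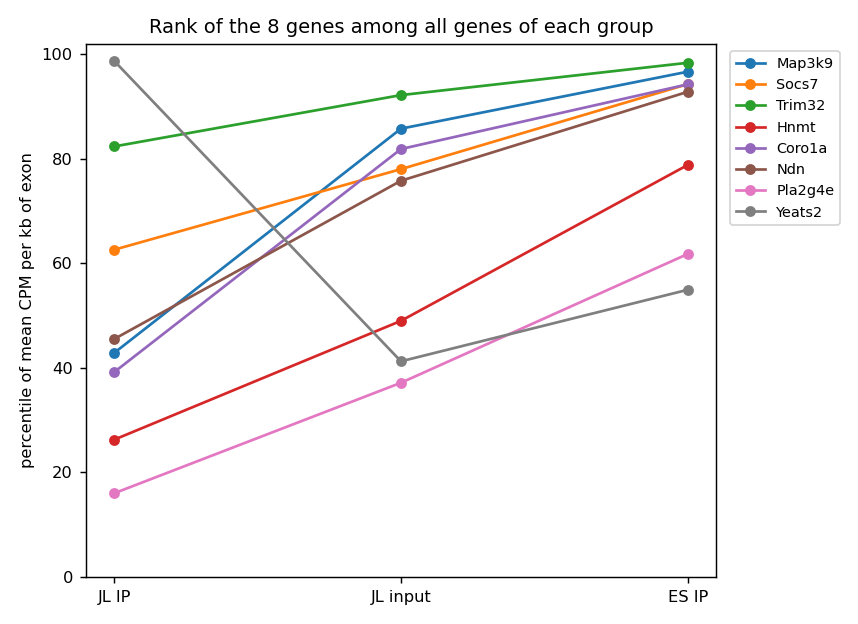
Percentile of each gene's mean CPM per kilobase of exon among 15518 genes (vertical) in JL IP, JL input and ES IP (horizontal, means of 3). The 7 genes climb from JL IP to ES IP, Trim32 from 82.4 to 98.4 and Pla2g4e from 16.0 to 61.8, while Yeats2 goes from 98.8 in the JL IPs to 41.3 in input and 55.0 in the ES IPs.

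Neither the partners nor the neighbours of Yeats2 showed a rise of this size. Of 13 tested genes of the ATAC complex and other YEATS proteins, 11 were higher and 1 lower in the JL IPs than in input, where 36.7% and 37.4% of all genes were; with upper-quartile scaling or library size alone the 11 became 8, as the calls on Kat2a, Mbip and Yeats4 ended. The largest log2 fold changes were 1.62 for Mllt1 (SE 0.08, edgeR adjusted p = 3.46e-07), a YEATS protein of the elongation machinery, and 1.61 for the acetyltransferase Kat2b (adjusted p = 3.96e-06). The lower gene was Tada2a, an adaptor of ATAC (-0.76, adjusted p = 0.00735). In the ES IPs against the JL IPs 1 was higher (Tada2a, 1.02, adjusted p = 0.0034) and 5 were lower, with Kat2b at -1.23 (adjusted p = 0.000136). Over all genes 29.7% were called higher and 28.2% lower between the IPs. The gene spans chr16:20141063-20232573 on the plus strand, with 31 exons in its longest coding transcript, and the pseudogene Gm10241 inside it shares no exonic base and has no row in the tables. Klhl24, its left neighbour, had means of 119, 216 and 212 CPM (ES IP, JL IP, JL input), and Map6d1, 730 bases to its right, 75.2, 15.0 and 98.9 CPM.

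**Figure D4:**
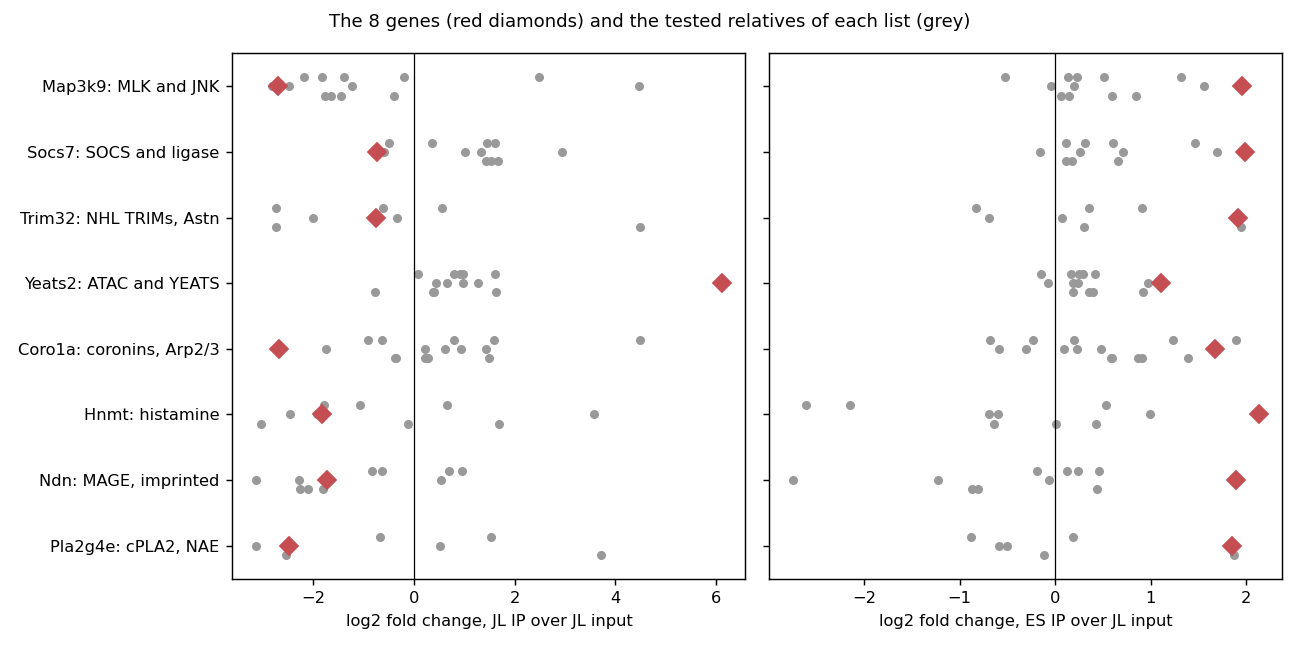
Log2 fold change over JL input of the JL IPs (left) and ES IPs (right) for each of the 8 genes (red diamonds) and the tested genes of its list (grey points), 1 row per list. In the left panel Yeats2 is at 6.12 while its list ends at 1.62, and in the right panel 7 of the diamonds lie between 1.67 and 2.13.

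Over the 8 lists, 85 relatives other than the 8 genes themselves passed the filter on low counts over the 9 libraries. All 3 ES IPs lay above all JL libraries for 11 of them (12.9%) and below for 4 (4.71%), against 10.2% and 7.95% of all genes. The share of relatives above both groups was thus near that of all genes. In the JL IPs against input, 39 of 84 tested relatives were called higher (46.4%) and 35 lower (41.7%), against 36.7% and 37.4% of all genes; their median was 0.22 on the log2 scale, against -0.09 over all genes.

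**Figure D5:**
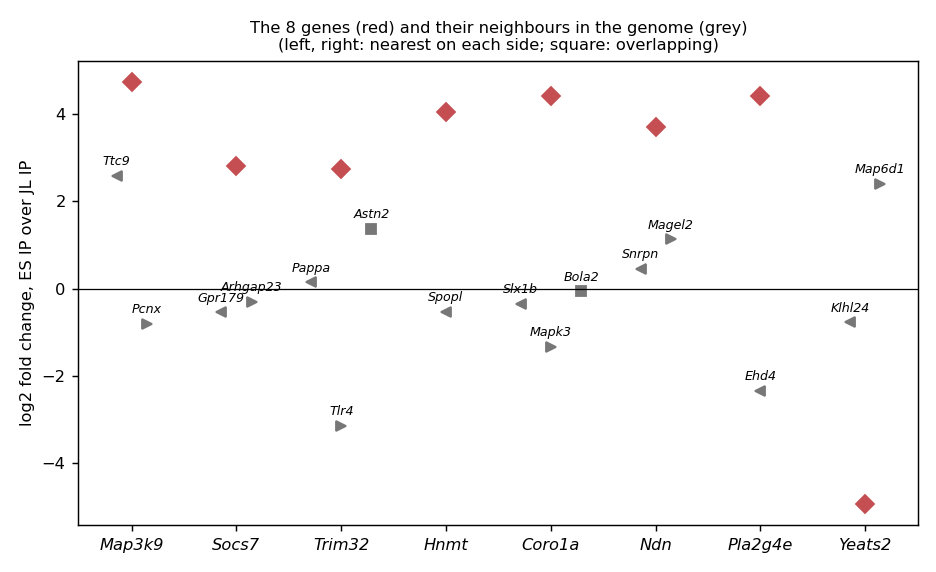
Log2 fold change of ES IP over JL IP (vertical) for each of the 8 genes (red diamonds) and the genes nearest to it on either side or overlapping it (grey, tested genes). Each red point lies apart from its grey neighbours, and Map6d1, beside Yeats2, lies on the opposite side of 0.

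The genes whose levels over the 9 libraries were most like each of the 8 were found by the root mean square difference of log2 CPM after centring on the mean, among 14085 named genes. Map3k9 and Pla2g4e were each other's nearest, at 0.34 log2 units. Socs7 was nearest to Lrguk (0.23) and then to Trim32 (0.26). Trim32 was nearest to Aars (0.17), an alanyl-tRNA synthetase, and Tubb2a (0.20), a beta tubulin of neurons. Hnmt was nearest to Tcap (0.21) and Prmt8 (0.22), and Ndn to Rgs14 (0.26) and Acot7 (0.28). Coro1a was nearest to Eno2 (0.34), the enolase of neurons, which had means of 1463, 86.1 and 546 CPM (ES IP, JL IP, JL input). Yeats2 had no near match: Itih5 (0.56) and Osmr (0.61) were the closest, and both were far higher in the JL IPs, with Itih5 at 43.7, 562 and 12.8 CPM. The distance of Yeats2 from the 7 others ran from 3.43 to 4.35, while the 7 differed from each other by at most 0.99.

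Cell type markers differed between the groups as well. The summed level of 12 endothelial genes was 7245 to 7698 CPM in the JL IPs, 774 to 1388 in the ES IPs and 54.0 to 57.3 in the inputs, and that of 11 neuronal genes was, in the same order of groups, 2168 to 2918, 17794 to 19605 and 17113 to 17906 CPM. Neuronal genes were thus all called higher in the ES than in the JL IPs (11 of 11) and endothelial genes all lower (12 of 12). Over all genes 29.7% were called higher and 28.2% lower. Called higher too were 7 of 7 oligodendrocyte, 6 of 7 astrocyte and 5 of 8 microglia genes, and 1 microglia gene was lower. Of 4 fibroblast genes 3 were lower and 1 higher, and 2 of 2 tested choroid plexus genes were lower. Between the IPs, in a direction that their choice had fixed, the 7 genes thus went with several cell types, and so did Yeats2. Over input the order was another: 0 of 7 oligodendrocyte genes were called higher in the ES IPs and 6 lower. Of 8 microglia genes 0 were higher and 4 lower, and of 7 astrocyte genes 2 were higher and 3 lower. Of 4 fibroblast genes 0 were higher and 2 lower, 4 of 4 choroid plexus genes were lower, and 12 of 12 endothelial genes were higher. In the same comparison 3 of the 11 neuronal genes were called higher and 3 lower, where 26.9% and 25.3% of all genes were. These log2 fold changes ran from -1.25 for Map2 (edgeR adjusted p = 0.00197) to 1.42 for Eno2 (adjusted p = 9.91e-05), with a median of 0.12. The 7 genes were chosen for their excess over both JL groups, so their values are not set against this list. Abcb1a itself averaged 44.9, 466 and 2.16 CPM (ES IP, JL IP, JL input). The ribosomal RNA row Rn45s took 6.04% to 12.03% of gene counts for ES IP, 15.7% to 17.9% for JL IP and 4.83% to 5.29% for input. Within the ES IPs, replicate 1 had the highest Coro1a and Ndn and the lowest Map3k9, Socs7, Trim32, Hnmt, Pla2g4e and Yeats2. It also had the highest endothelial sum and the highest Rn45s share. The part of these differences in the levels of the 8 genes was not tested.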

How the data were processed

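The authors deposited raw read counts per gene, 1 table per library with 32531 gene rows. STAR 2.0.0e, HTSeq and the build mm10 are named in the submitters' processing notes; which annotation, strand setting or filter was used is "not given in the sources used here". Reads of overlapping genes on opposite strands therefore cannot be told apart, and reads with several places entered no gene. HTSeq's 5 special rows and the row "unknown" (at most 3 counts) stayed out of library sizes. Reads without a feature came to 17.3% to 24.4%. Ambiguous reads split by group, at 10.3% to 11.3% for input, 2.44% to 2.54% for ES IP and 2.04% to 2.13% for JL IP. Alignments with several places, per gene count, were 0.61 to 0.64 for input, 0.95 to 1.43 for ES IP and 1.80 to 2.05 for JL IP. The part of these differences in the levels was not tested. Libraries held 31987470 to 46598478 gene counts, and 3 counts equal 0.0644 to 0.0938 CPM. Replicates differed by more than counting noise (chi-square per degree of freedom 7.00 to 217), so each was counted once.

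Counts were analysed in R 4.3.3 with edgeR 4.0.16 (filterByExpr, TMM, quasi-likelihood test, Benjamini-Hochberg adjustment over all genes tested, threshold 0.05), fitted on the 6 libraries of each comparison; CPM are TMM-scaled, and standard errors come from the fold change and its F statistic (log2 value over the root of F). The comparisons share libraries and are not independent. DESeq2 1.42.0, limma 3.58.1 (voom), other scalings and filters, a 3-group fit and each replicate left out were alternatives. The scripts were tested on simulated data.

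The genes, the 8 lists of relatives and the 12 marker lists were chosen with earlier results of these data known. Of 92 listed relatives 91 had a row, 5 of them under an older symbol. Named were the 8 genes, the 2 genes most like each (root mean square of centred log2(CPM + 0.5) differences, predicted genes left out), relatives with the largest changes or at least 1 log2 unit apart, others needed to account for a count of calls, and overlapping or nearest genes. Positions are from GENCODE M21 (mm10), GC content and length from its longest coding transcript.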

Additional observations from a re-analysis of the deposited data

How the results depend on the processing

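In JL IP against JL input, all 8 genes kept their direction and call under each of 16 alternatives; the highest adjusted p was 0.00688 (Socs7). In the ES comparisons no gene changed direction and 250 of 256 values moved by less than 1 SD between replicates; the others were Pla2g4e over the JL IPs without JL IP replicate 2 (5.07), Hnmt over the JL IPs without JL IP replicate 3 (4.28), and, over input, Hnmt and Yeats2 under upper-quartile scaling (1.98 and 0.95) and library size alone (2.02 and 0.99). The same 7 genes lay above all JL libraries in every setting run. They were chosen for that position, and leaving out a library asks fewer libraries to agree, so this is no independent support. Upper-quartile scaling moved the median of all genes from -0.09 to -0.34 in JL IP against input and from 0.00 to -0.15 in ES IP against input; relative to that median, Socs7 fell by 0.65 in the first of these under both scalings. Genes called numbered 12859, 9381 and 9126 (JL IP against input, ES against JL IP, ES IP against input), and 11477 to 13701, 7969 to 9904 and 6730 to 11332 with 1 replicate left out. With 1 replicate left out, genes with all ES IPs above the JL libraries went from 1820 to between 1913 and 2625, and those below from 1415 to between 1393 and 2162, the last without ES IP replicate 1, where fewer libraries have to agree. Over all alternatives the lowest counts were 1496 above and 1321 below. Upper-quartile scaling put 8.40% of genes above and 8.95% below, which turned round the order of the main shares, 10.2% and 7.95%. Of the calls on relatives, 64 of 74, 50 of 57 and 28 of 43 held under every alternative; 2 of the first, Actr3 and Arpc5l, also changed direction under upper-quartile scaling (-0.02 and -0.04 from 0.23 and 0.21) and library size alone (-0.03 and -0.05). Between the IPs those that did not were Actr3, Coro6, Hrh1, Maged2, Mageh1, Slc22a3 and Ube3a.

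Same-numbered JL IP and input libraries carried the same lane number, a different one for each replicate. The labels tie no other source to the numbers. The Ddx3y counts did go with them, at 2298 and 3249 in replicate 1 of JL IP and input and at 0 or 1 in replicates 2 and 3. The deviations of same-numbered libraries correlated at 0.14, 0.063 and 0.093 between JL IP and input, with each JL IP closest to its own number, and between -0.037 and 0.084 in the ES comparisons. A replicate block gave 12431, 9303 and 8651 calls and ended no call on the 8 genes in JL IP against input. Depth limits Hnmt and Pla2g4e in the JL IPs, where single libraries held as few as 35 and 27 reads.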
